A study of Mus musculus with 1931 samples.

Results

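Among the VE-like cells of Rosette-to-Lumen stage embryoids (RtL-embryoids), cells in which neither *Mki67* nor *Top2a* was detected were compared with cells in which both were. VE-like cells were taken by position: wells of columns 9 to 16 on plates 3, 4 and 5, with at least 2500 genes above 0 TPM. TPM are transcripts scaled to a fixed sum per cell, here before some genes were filtered out. In 16 of these cells both genes were at 0 TPM, and these are called negative here. Both were above 0 in 83.2% of the VE-like cells kept, 95 on plate 3, 88 on plate 4 and 79 on plate 5, and these are called positive. The remaining cells held only 1 of the 2 genes, *Mki67* in 18 and *Top2a* in 19. The whole series kept 1406 cells of 1931 wells by the same minimum, and 68 wells of columns 9 to 16 fell below it.

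The VE-like cells came from 1 pool of handpicked RtL-embryoids, made from 3 ESC lines in 3D co-culture. The study takes the VE-like compartment to descend from iGATA6 ESCs, an ESC line that carries a doxycycline (DOX)-inducible *Gata6* transgene and was transduced with mCherry. The ExE-like compartment was most likely formed by 5F-ESCs, with inducible *Cdx2*, *Tfap2c*, *Eomes*, *Gata3* and *Ets2*, and the Epi-like compartment from Kermit ESCs, whose GFP is driven by the *Pou5f1* promoter. The co-culture received DOX at 2 µg/ml for 3 days, followed by 24 h without. Negative and positive cells share this history and the plates. VE-like cells were sorted as positive for mCherry and negative for GFP and CD40, but no source used here ties a well to its sort gate, so cells are named by their wells. The pool counts as 1 sample and the plates only divide it, so differences are given for each plate and no p-value was computed.

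*Mki67* encodes the proliferation marker Ki-67 and *Top2a* the topoisomerase that untangles replicated chromosomes. Both transcripts build up through S phase and peak in G2 and mitosis, so a cell in G1, a cell that has left the cycle and a poorly captured cell can each lack them. The visceral endoderm is an absorptive and secretory epithelium: it takes up maternal proteins through receptors such as cubilin and megalin, degrades them in lysosomes, and secretes apolipoproteins, carrier proteins and basement membrane.

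The rule itself set the levels of both genes. Among positive cells, the lowest *Mki67* value was 0.597 TPM, the median 26.4 and the highest 212.5. For *Top2a* the lowest was 6.03 TPM, the median 144.4 and the highest 752.9. The 18 cells with *Mki67* alone reached a median of 16.8 TPM and the 19 cells with *Top2a* alone a median of 48.6 TPM, so a cell on neither side could hold a clear level of 1 of the genes. At the other threshold, the cell kept with the fewest genes had 2504 and the fullest well left out had 2420.

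Negative cells made up 5.08% of the VE-like cells (exact 95% interval 2.93 to 8.12%, covering counting error only). Plates 3 and 4 held 5 of them each (4.50% and 4.67% of their cells) and plate 5 held 6 (6.19%). Negative cells expressed fewer genes than positive cells: the medians were 6359 against 6722 on plate 3, 3882 against 5073.5 on plate 4 and 4224.5 against 5046 on plate 5. Because TPM keep no read number, the number of expressed genes stood in for depth. Each negative cell was therefore paired with the positive cell of the same plate nearest in that number, at most 200 genes apart. This gave 15 pairs, 5 per plate, with a median gap of 4 genes. The unpaired negative cell, on plate 5, had 2816 genes, 790 fewer than the nearest positive cell.

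**Figure D1:**
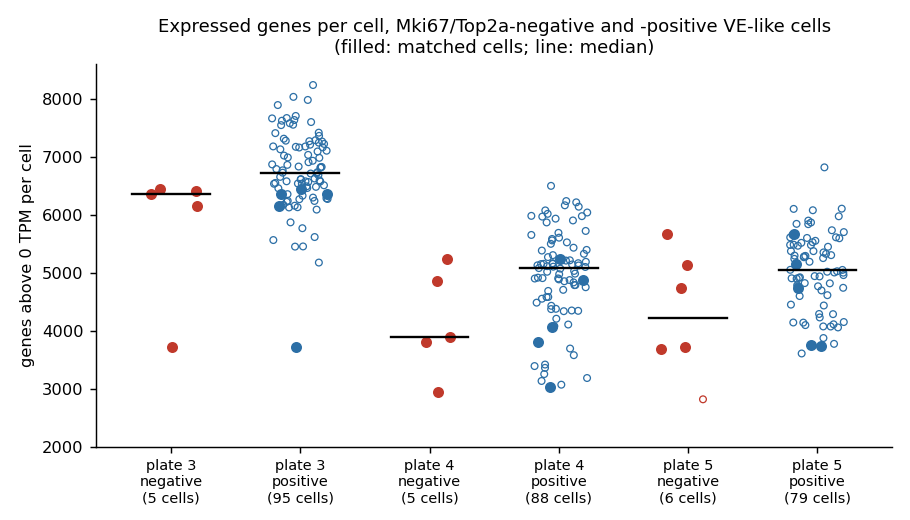
Genes above 0 TPM per cell (y axis) for *Mki67*/*Top2a*-negative and -positive VE-like cells on plates 3, 4 and 5, each point 1 cell, with a line at the median of all cells of that side. Filled points are the 15 matched pairs, which span 2944 to 6441 genes on the negative side and 3027 to 6438 on the positive side, while most unmatched positive cells of plates 4 and 5 lie above the negative median.

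VE markers were detected on both sides. Of 14 VE markers, negative cells expressed 7 to 14 (median 11) and positive cells 0 to 14 (median 12), and the summed VE marker level ranged from 16.9 to 52.6 TP10k in negative cells. TP10k are TPM rescaled to a sum of 10000 per cell. *Amn*, the cubilin partner amnionless, reached a mean of 5.90 TP10k in matched negative and 4.63 in matched positive cells, *Cubn* 4.18 and 2.81, and the endoderm factor *Gata4* 3.22 and 2.79. ExE markers were near 0 in negative cells: a median of 1 of 15 was detected, and *Tfap2c*, *Gata2*, *Hand1*, *Ascl2* and *Esx1* were at 0 in every one. Of the 11 fibroblast markers, 7 including *Col1a1* and *Col3a1* were at 0 in all negative cells. Epi markers were not absent: a median of 4 of 12 was detected in negative and 5 in positive cells, led by *Dppa5a* with means of 62.5 and 75.7 TP10k, whereas *Tdgf1*, *Gdf3*, *Fgf4* and *Trh* were at 0 in all negative cells. Parietal endoderm markers were detected alike, with a median of 11 of 15 on each side.

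In 4 VE-like cells, a larger share of the Epi or ExE markers than of the VE markers was detected. None was negative, and 1 was a matched positive cell on plate 3 with 0 VE and 10 of 15 ExE markers. It held *Apoe* at 0.256 TP10k and lies behind the lowest value of several VE genes on the positive side, so values without such cells stand below where they matter.

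A negative cell was not a cell without cycle transcripts. Of 29 mitosis genes, which do not include the 2 genes of the rule, negative cells expressed 1 to 15 (median 8.5) and positive cells 6 to 29 (median 24). Of 29 DNA replication genes they expressed 7 to 24 (median 16.5), against 6 to 29 (median 23). In 4 of the 16 negative cells both *Cdk1* and *Ccna2* were above 0, in 6 both were at 0, and in the other 6 only 1 was detected. The cells with *Mki67* alone and *Top2a* alone lay between, with medians of 14.5 and 12 mitosis genes.

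**Figure D2:**
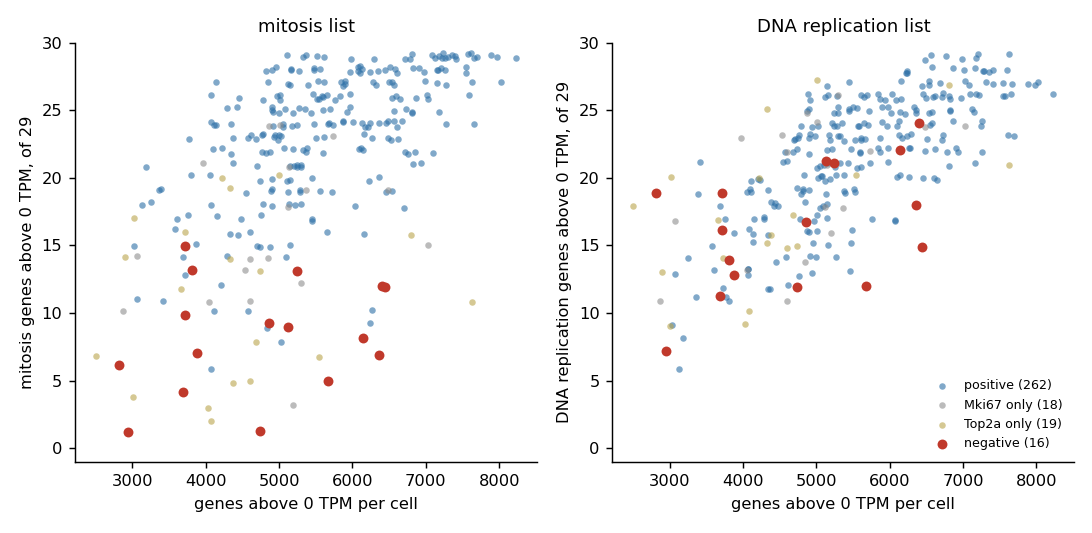
Number of mitosis genes (left) and DNA replication genes (right) above 0 TPM, each of 29, against the number of all genes above 0 TPM in the same cell, with points spread vertically by less than 1 gene to separate ties. Negative cells (16, large points) sit low in mitosis genes across the range of gene numbers and overlap the positive cells more in replication genes.

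Cells chosen by *Mki67* and *Top2a* had to differ in the genes that rise and fall with these, so the cycle genes are a description. Here and below, a gene was examined if it was above 0 in at least 25% of the matched cells of either side, and called if the mean TP10k differed at least 1.5-fold and the mean log2(TP10k + 1) differed in the same direction on each of the 3 plates. By this measure 11.7% of the 8295 genes examined were higher and 11.6% lower in negative cells, and 21 of 29 mitosis genes and 9 of 29 replication genes were lower. Of these, 8 mitosis genes and 1 replication gene were examined through the positive side alone. The survivin gene *Birc5* had a mean of 0.634 TP10k in negative and 3.77 in positive cells, the cyclin-dependent kinase *Cdk1* 1.15 and 4.22, and the APC/C ubiquitin-conjugating enzyme *Ube2c* 0.191 and 2.44. The ribonucleotide reductase subunit *Rrm2* reached 0.173 and 2.58, and the thymidine kinase *Tk1* 0.787 and 2.41. *Mcm6*, a subunit of the replicative helicase loaded in G1, was the only 1 of these 29 replication genes called higher. It had 1.62 against 1.07 TP10k, a ratio of 1.505 that only just passed the 1.5-fold limit.

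Many promoters of the mitosis genes hold a short element, shown here because this list moved most with the rule. The cell cycle homology region (CHR; TTTGAA or TTCGAA, either strand) lies near the start of many genes expressed in G2 and mitosis. It was found in the RefSeq promoters (250 bases before to 50 after the start, GRCm38.p6) of 18 of 25 mitosis genes with an entry, in 5 of 24 replication genes (20.8%), and in 53.3% of the 90 called-lower genes on the cell cycle list. The share was 16.5% over all 15150 promoters, 16.4% for genes called lower outside that list and 12.3% for genes called higher outside it. The stretches below lie before the start site, at chr4:118437344-118437381 (minus strand) for *Cdc20*, chr2:164769880-164769925 (plus) for *Ube2c* and chr10:69352958-69353003 (minus) for *Cdk1*, with the match in capitals. A match is a description of the letters, not a bound site.
Cdc20: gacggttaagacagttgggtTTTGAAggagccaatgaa
Ube2c: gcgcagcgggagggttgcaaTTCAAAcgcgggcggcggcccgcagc
Cdk1: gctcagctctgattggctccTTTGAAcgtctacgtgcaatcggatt

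Outside the cell cycle list, 7998 genes were examined. Of these, 12% were called higher and 10.6% lower in negative cells, and the median difference over all of them was 0.01 on the log2 scale. These shares are the background for the counts from the 15 pairs that follow, while counts from other settings or columns have their own shares. The per-cell values and means of genes are those of the 15 matched cells of each side unless stated. With each negative cell matched to up to 5 positive cells, 8.96% of 8168 genes were higher and 11.9% lower. Without matching 6.66% were higher and 13.97% lower, and with at least 4000 genes per cell 10.8% and 8.95%. Of the genes called higher with 1 positive cell each, 43.6% were also called with up to 5, and of the genes called lower, 52.1%, which make up 56.97% and 45.7% of the calls with up to 5.

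The genes with the largest differences had mixed roles. *Asl* (chr5:130011258-130029247), which encodes the urea cycle enzyme argininosuccinate lyase, was found in 14 of 15 negative and 6 of 15 positive cells. Its level ran from 0 to 16.05 TP10k (median 2.31) in matched negative cells and from 0 to 3.88 (median 0) in matched positive cells, with means of 4.78 and 0.552. Of these negative cells, 6 lay above the highest matched positive cell, and 3 above the highest of all positive cells, at 11.2 TP10k. The 8.65-fold difference of the matched cells was 3.83-fold against up to 5 positive cells each and 3.12-fold over all cells without matching. The mean log2(TP10k + 1) of negative cells was higher by 1.04, 1.70 and 2.20 on plates 3, 4 and 5. *Ass1*, which makes the substrate of this enzyme and was looked up after the values of *Asl* were seen, was also higher, with means of 4.61 and 2.12 TP10k.

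*Apoe* (chr7:19696109-19699188), the lipid carrier apolipoprotein E, was the most abundant gene of the group and was found in every matched cell. Matched negative cells ranged from 14.7 to 161.2 TP10k (median 97.1) and matched positive cells from 0.256 to 58.7 (median 45.1). Among matched cells this separated most, since 12 of 15 negative cells exceeded the highest positive cell, but over all cells the highest positive cell reached 214.2 TP10k and none of the negative cells exceeded it. The means were 94.2 and 36.9 TP10k, a 2.56-fold difference, and 94.2 and 40.1 once cells with more Epi or ExE than VE markers were left out. Against up to 5 positive cells each it was 2.11-fold, and over all unmatched cells the means were 89.9 and 48.6 TP10k.

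The transcriptional coregulator *Cited1* had means of 8.73 TP10k in negative and 2.09 in positive cells, with 7 matched negative cells above every matched positive one. Over all cells 2 negative cells lay above every positive one, and the ratio fell from 4.19 to 2.46 against up to 5 positive cells each. *Plac8*, a small cysteine-rich protein first described in placenta, reached 3.83 against 0.796 and was found in 12 and 7 cells. The lysosomal protease cathepsin H, *Ctsh*, reached 8.78 against 2.76 TP10k, and the electron carrier *Cyb5a* 6.32 against 2.19. *Gpat4*, which starts glycerolipid synthesis in the endoplasmic reticulum, was found in all 15 negative and 9 positive cells at 1.76 and 0.262 TP10k, a ratio of 6.73 that fell to 2.05 with up to 5 positive cells each. *Mlx*, the partner of glucose-sensing transcription factors, was found in 14 and 6 cells at 2.23 and 0.648 TP10k, a ratio of 3.43 that fell to 1.90. The retinoic acid-degrading enzyme *Cyp26a1* was found in 10 negative cells and 1 positive cell, with means of 1.56 and 0.0268 TP10k, so it was examined through the negative side alone. With up to 5 positive cells each the means of *Cyp26a1* were 1.60 and 0.504. *Commd6*, *Psenen*, a subunit of gamma-secretase, and the processed pseudogene *Dynlt1-ps1* complete the 12 with the largest differences. *Dynlt1-ps1* can share reads with its parent gene and is uncertain, and *Psenen* was not called with up to 5 positive cells each.

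Of the genes lower in negative cells, *Spp1* (chr5:104435118-104441050) differed most. It encodes osteopontin, a secreted integrin-binding phosphoprotein. Matched negative cells ranged from 0 to 3.53 TP10k (median 0) and matched positive cells from 0 to 22.01 (median 4.61), and 8 of these positive cells lay above every matched negative one. The unpaired negative cell, left out of these values, held 22.01 TP10k, as much as the highest matched positive cell. With means of 0.939 and 6.75 TP10k *Spp1* was 7.18-fold lower, and 9.22-fold lower against up to 5 positive cells each. Over all cells, the unpaired one included, the means were 2.26 and 7.70 TP10k, a smaller difference. The plates gave differences of -1.27, -1.38 and -2.33 on the log2 scale.

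*Arhgef40*, a guanine nucleotide exchange factor of small GTPases, had a median of 0 in negative and 3.34 TP10k in positive cells. Its mean in positive cells, 10.8 TP10k, rests largely on 1 cell at 109.1, and without that cell the ratio fell from 19.3 to 6.73. The vesicle SNARE *Vamp3* reached means of 3.31 and 10.01 TP10k, the ESCRT-II subunit *Snf8* 1.297 and 6.39, and *Vps51*, of the vesicle-tethering GARP complex, 1.06 and 2.97. All 3 act in endosomal traffic, and *Vps51*, like *Tmsb10*, *Psenen* and *Dynlt1-ps1*, was not called without matching. The ribosome assembly GTPase *Gtpbp4* reached 8.25 and 18.3 TP10k, with the highest single value on the negative side, and the deubiquitinase *Uchl5* 3.62 and 9.76. *S100a10*, the annexin A2 ligand, reached 2.31 and 6.62, the actin-sequestering *Tmsb10* 15.3 and 25.6, the secreted protease *Htra1* 2.25 and 5.01, *Brms1l* 0.323 and 2.93, and the collagen prolyl hydroxylase subunit *P4ha2* 1.99 and 4.66. *Htra1* and *Tmsb10* were not called with up to 5 positive cells each.

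**Figure D3:**
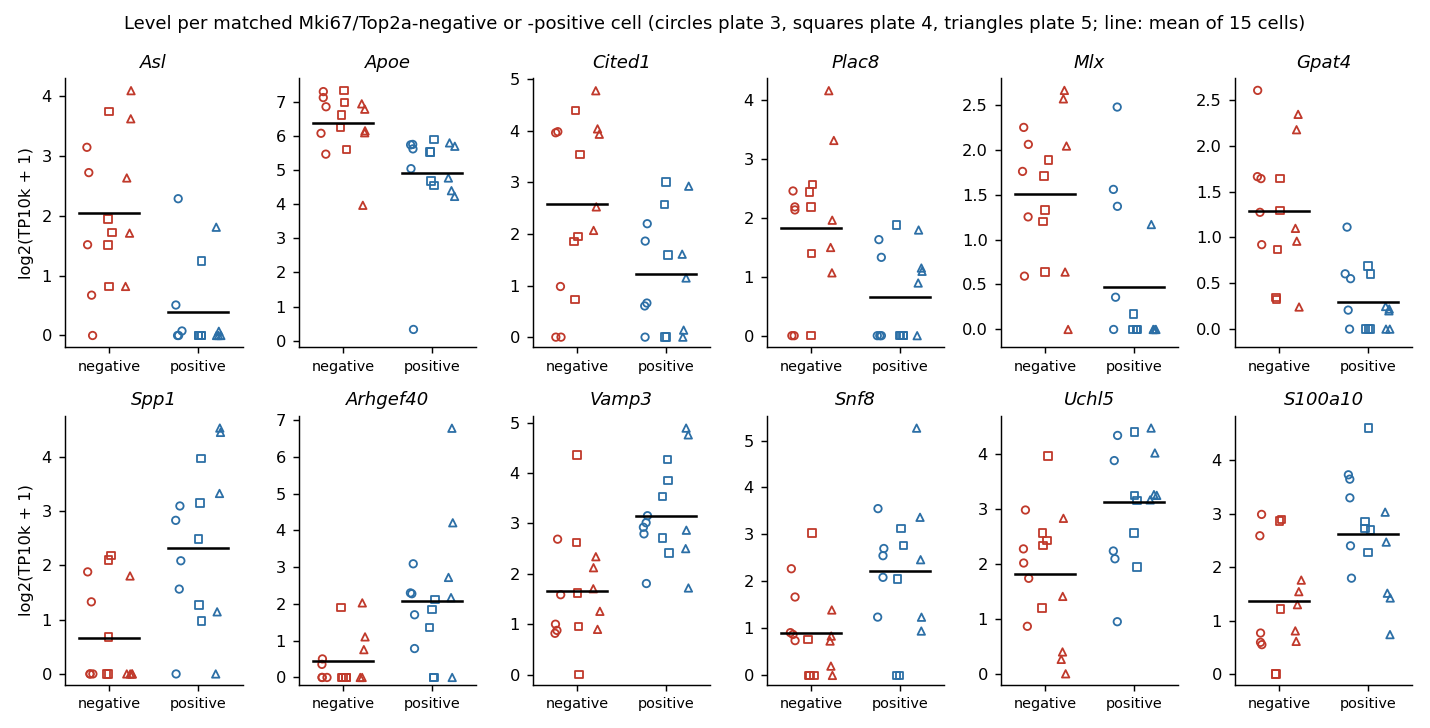
Level in each matched cell, as log2(TP10k + 1), of 6 genes higher (top) and 6 genes lower (bottom) in *Mki67*/*Top2a*-negative cells, with circles for plate 3, squares for plate 4 and triangles for plate 5 and a line at the mean of the 15 cells of a side. *Apoe* separates 12 negative cells from all matched positive ones and has 1 positive cell near 0 on plate 3, while in the other genes the sides overlap and many values are at 0.

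Secretion was examined in 3 steps: the cargo, its folding in the endoplasmic reticulum (ER) and its transport. Of the cargo, 8 of 12 secreted endoderm proteins examined were higher in negative cells and none was lower, against the background of 12%. The median difference was 0.47, with 0.08 on plate 3, 0.39 on plate 4 and 0.63 on plate 5. Of the 34 genes of that list present in the data only 12 passed the filter on low values. Of the 8 called, 4 passed through the negative side alone, so that they could hardly differ otherwise. These 4 were *Ttr*, which carries thyroid hormone and retinol, the retinol carrier *Rbp4*, *Apob* and *Pdgfa*. *Ttr* was found in 4 negative cells at up to 20.3 TP10k, *Rbp4* in 5 cells at up to 3.42, and all 3 carriers *Ttr*, *Rbp4* and *Apob* were at 0 in the 15 matched positive cells. Further positive cells did hold them: with up to 5 positive cells each, *Ttr* had means of 1.66 and 0.164 TP10k and *Rbp4* 0.763 and 0.144. The other 4 were *Apoe*, *Mttp*, which loads lipid onto apolipoprotein B, *Vegfa* and the trypsin inhibitor *Spink1*. *Mttp* was found in 15 negative and 13 positive cells at means of 1.17 and 0.484 TP10k. *Spink1* had means of 6.19 and 1.88, and without its highest negative cell, at 50.8 TP10k, the ratio fell from 3.28 to 1.59. With up to 5 positive cells each 5 of 12 members were called, and with at least 4000 genes per cell, which left 9 pairs, 2 were higher and 1 lower.

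Genes that fold and move cargo gave few calls. Of 48 genes for ER translocation and folding, 0 were called higher and 1 lower, the signal peptidase subunit *Spcs3* with means of 0.623 and 1.13 TP10k. With up to 5 positive cells each the counts were 1 and 8. Of 47 genes for ER-to-Golgi and Golgi transport, 5 were higher and 3 lower, with a median difference of 0.04. *Tmed3*, a cargo receptor of COPII and COPI vesicles, was higher at 1.14 against 0.173 TP10k, whereas the GTPases *Arf4*, at 3.38 against 6.12, and *Rab2a*, at 0.852 against 1.87, were lower.

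Among genes of endocytosis and the lysosome, 9 of 37 (24.3%) were higher and 2 lower. The median difference was 0.20 and varied between plates, with 0.50 on plate 3, 0.20 on plate 4 and -0.01 on plate 5. Cathepsin D, *Ctsd*, had means of 9.56 and 5.85 TP10k, the sialidase *Neu1* 2.38 and 1.11, and the clathrin adaptor *Dab2*, also a VE marker, 10.7 and 6.68. With up to 5 positive cells each 5 were higher, and without matching 2 were.

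The matrix genes, in which VE-like cells are rich, stayed near or under the background. Of 15 basement membrane genes 1 was called higher and 0 lower. That gene was *Fbln1*, encoding the elastic fiber and basement membrane protein fibulin 1, at 0.399 against 0.129 TP10k. The abundant members did not pass in either direction. *Sparc*, the collagen-binding matricellular protein, had means of 76.6 and 56.8 TP10k, and the collagen IV chain *Col4a1* 18.7 and 16.2. The laminin chains *Lama1*, *Lamb1* and *Lamc1* had means of 2.58, 4.70 and 7.54 TP10k in negative cells and 3.65, 6.97 and 9.70 in positive cells. Each was lower in negative cells on all 3 plates, by 1.42-fold, 1.48-fold and 1.29-fold, below the 1.5-fold limit. Among 16 collagen-processing genes the pair of prolyl 4-hydroxylase alpha subunits was called in opposite directions: *P4ha1* was higher (2.72 against 1.55 TP10k) and *P4ha2* lower. Of 12 further matrix genes 2 were higher and 2 lower, with the heparan sulfate proteoglycan *Gpc3* at 2.31 against 0.737 TP10k and *Spp1* at the other end. Of 11 integrin and adhesion genes 1 was called each way, and the higher one, *Itga6*, was examined through the negative side alone.

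Actin and cytoskeleton genes were lower in 7 of 23 members (30.4%) and higher in 0, with medians of -0.36, -0.16 and -0.24 on plates 3, 4 and 5. Of these 7 genes, 1 was examined through the positive side alone. Beta-actin, *Actb*, ranged from 32.2 to 220 TP10k (median 76.3) in negative and from 55.8 to 388.7 (median 113.6) in positive cells. The others called were *S100a10*, *Tmsb10*, *Anxa2*, *S100a11*, *Lgals3* and the matricellular YAP target *Cyr61*, at 0.363 against 1.46 TP10k. Against up to 5 positive cells each 3 were lower and 1 higher.

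In lipid metabolism, 12 of 24 cholesterol synthesis genes (50.0%) were higher and none lower, with a median difference of 0.19 and 0.16, 0.23 and 0.13 on the 3 plates. Of these 12 genes, 1 was examined through the negative side alone. Among them, *Insig1*, the sterol-regulated ER anchor protein, had means of 3.27 and 0.283 TP10k. The farnesyl diphosphate synthase *Fdps* reached 4.33 and 1.31, *Msmo1* 4.42 and 0.996, and *Cyp51* 1.28 and 0.200. This count depended on which positive cells were matched: it was 4, with 1 lower, against up to 5 positive cells each, 5 when cells were matched on genes outside the cell cycle list, and 3 without matching. With up to 5 positive cells each, the means of *Fdps* were 4.67 and 2.38 TP10k and those of *Msmo1* 4.24 and 3.18. *Insig1* stayed 4.28-fold higher in that comparison.

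A promoter element of the sterol synthesis genes is shown because 12 of them were called together, but it is not particular to them. The sequence CCAAT, on either strand, was in the promoters of 15 of 17 cholesterol synthesis genes with an entry, in 38.4% of all promoters and in 38.8% of those of the genes called higher outside the cell cycle list. It was also in the promoters of 19 of 25 mitosis genes, 15 of 24 replication genes and 64.4% of the called-lower cell cycle genes, in which the calls went the other way. The sterol element TCACCCCAC was in none of the 17 and in 0.528% of all. The stretches below lie before the start site at chr5:28071176-28071220 (plus strand) for *Insig1*, chr8:64733714-64733758 (minus) for *Msmo1* and chr5:4104702-4104746 (minus) for *Cyp51*, with the match, or its reverse complement ATTGG, in capitals.
Insig1: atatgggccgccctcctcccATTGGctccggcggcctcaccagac
Msmo1: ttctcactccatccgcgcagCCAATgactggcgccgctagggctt
Cyp51: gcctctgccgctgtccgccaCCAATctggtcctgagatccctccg

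Glycolysis and oxidative phosphorylation gave few calls. Of 21 glycolysis genes 1 was higher and 1 lower, with the glucose transporter *Slc2a3* at 12.7 against 7.94 TP10k. Of 59 oxidative phosphorylation genes 2 were higher and 2 lower, and the median difference was -0.18 (-0.28, -0.05 and -0.13 on the plates). The 2 higher were both subunits of succinate dehydrogenase, *Sdha* at 4.43 against 1.75 and *Sdhd* at 5.69 against 3.33. *Ndufab1*, at 6.86 against 10.5, and *Cox6c*, at 4.90 against 7.96, were lower. In the TCA cycle and one-carbon list, which also holds *Sdha*, 6 of 38 genes were lower and 1 higher, with the mitochondrial serine hydroxymethyltransferase *Shmt2* at 1.23 against 1.95. Of 28 genes of fatty acid and lipid metabolism 5 were higher (17.9%) and 2 lower. Of 18 hypoxia response genes 5 were higher (27.8%, against the background of 12%) and 2 lower, with the mitophagy receptor *Bnip3l*, at 4.81 against 1.66, and *P4ha1* among the higher ones. In each of these lists 2 of the 5 higher members had passed the filter through the negative side alone. With up to 5 positive cells each 4 of 19 hypoxia genes were higher and 1 lower.

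Ribosome biogenesis and translation genes were lower in 6 of 34 members (17.6%) and higher in 1. *Eif2s2*, a subunit of the initiation factor that brings the first tRNA, had means of 4.30 and 9.54 TP10k, with 5 matched positive cells above every matched negative cell. Of 17 immediate early and heat shock genes 3 were higher, *Klf4*, *Jun* and *Jund*, and the chaperone *Hsp90aa1* was lower, with 10.4 against 16.1 TP10k and 6 matched positive cells above every matched negative cell, although the unpaired negative cell held 25.6. *Jun* was found in 6 negative cells and 1 positive cell, so it was examined through the negative side alone. Of 28 ATF4 and amino acid stress genes 2 were higher and 3 lower, and of 20 p53 targets 1 was higher and 2 lower.

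**Figure D4:**
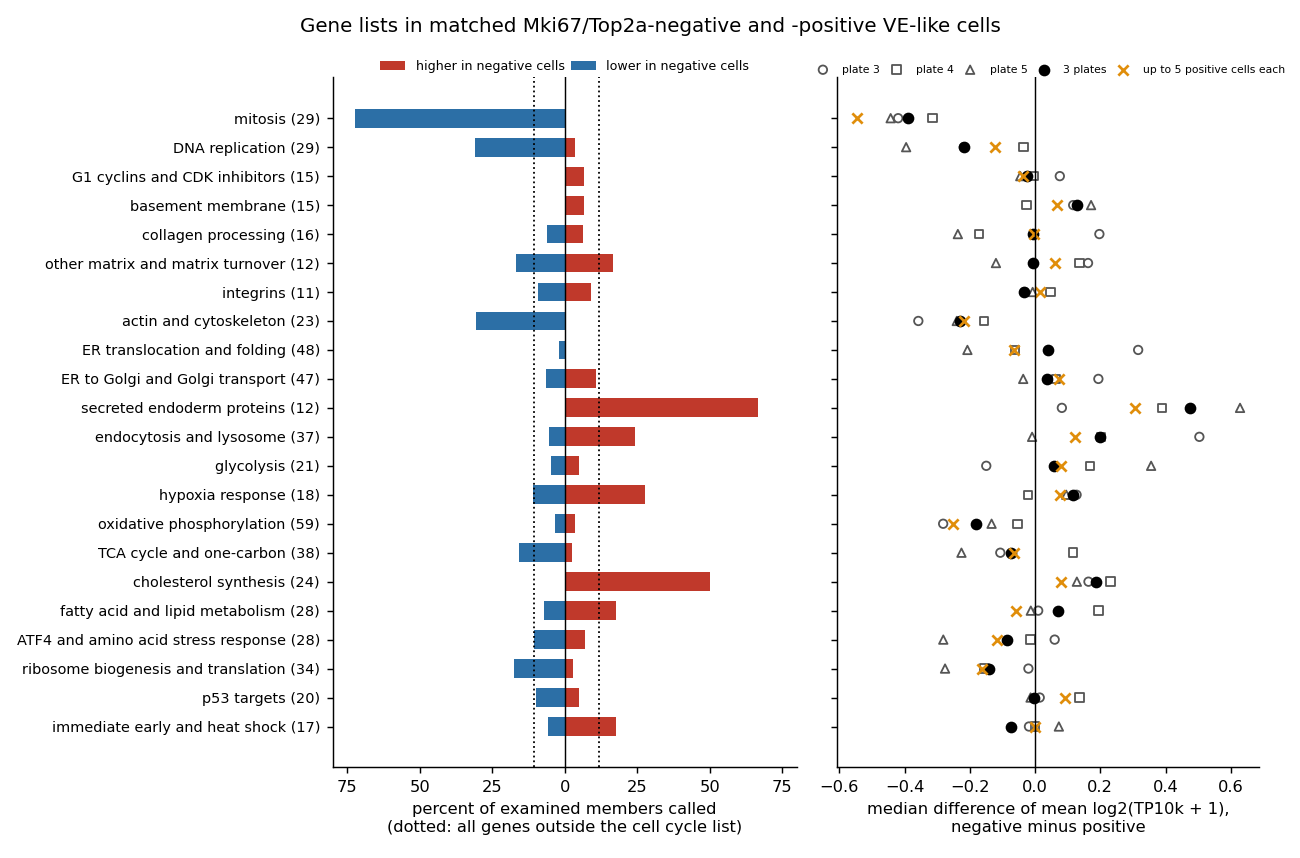
Left, percent of the examined members of each list (number in brackets) called higher (red, to the right) or lower (blue, to the left) in *Mki67*/*Top2a*-negative cells, with dotted lines at 12% and 10.6%, the shares over all genes outside the cell cycle list. Right, median difference of mean log2(TP10k + 1) on each plate (open), over the 3 plates (black) and against up to 5 positive cells each (crosses), which move cholesterol synthesis from 0.19 to 0.08 and secreted endoderm proteins from 0.47 to 0.31.

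Few G1 regulators were called. Of 15 G1 cyclins and CDK inhibitors examined, 1 was called: *Cdkn1b*, which encodes the CDK inhibitor p27, with means of 0.284 and 0.181 TP10k, and 1.17-fold against up to 5 positive cells each. *Cdkn1a*, encoding p21, was found in 7 cells on each side at 1.96 and 1.14 TP10k, with opposite signs between the plates. *Cdk4* had means of 14.2 and 17.03 TP10k. Of the cell type markers beyond the VE, 0 of 6 AVE and EmVE markers, 1 of 6 Epi markers (*Esrrb*, found in 4 negative cells and 0 positive cells) and 1 of 4 ExE markers (*Rhox6*, lower) were called. *Esrrb* was examined through the negative side alone and *Rhox6* through the positive side alone. The median difference of the AVE and EmVE markers was 0.22, with 5 of 6 higher in negative cells, and gave -0.02, 0.08 and 0.30 on plates 3, 4 and 5. That of the ExE markers was -0.10. *Cited1* also stands on the list of trophoblast giant cell and ectoplacental markers. Of that list, the placental lactogen genes *Prl3d1* and *Prl3b1* and the ectoplacental cone gene *Tpbpa* were at 0 in all negative and all matched positive cells.

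A split by *Cdk1* and *Ccna2* gave another set of cells. It found 21 negative cells, of which 6 were also negative for *Mki67* and *Top2a* and 5 were positive for both, and 20 pairs could be matched. Outside the cell cycle list, 13.7% of 7311 genes were called higher and 11.4% lower under this split. Mitosis genes were lower in 24 of 29 members, but that list holds *Cdk1* and *Ccna2*, whose levels this split set. *Apoe* had means of 65.0 and 60.6 TP10k, and the cholesterol list had 7 higher members. Of the 24 genes with the largest differences, 16 were not called under this split. Among the other 8, *Asl*, with 2.49 against 1.63 TP10k, *Cited1*, with 6.44 against 3.36, and *Spp1*, with 1.94 against 7.77, were called in the direction given above.

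Outside the VE-like cells the same rule was applied to the other wells. In columns 17 to 24, where ExE markers were most often detected, 55 cells were negative (15.6%, exact interval 11.96 to 19.8%), 20 on plate 3, 20 on plate 4 and 15 on plate 5. In columns 1 to 8, where Epi markers were, 9 were (2.87%, 1.32 to 5.37%). The 2D cultures had almost none: 1 iXEN cell (0.709%), 1 iTSC (0.709%) and 0 ESCs in 2i/LIF, where the exact interval reaches 2.56%. The iXEN cells came from the iGATA6 line and the iTSCs from 5F-ESCs, each given DOX for 3 days and then 24 h without. The iTSC medium held FGF4 and heparin. Each 2D culture had its own medium and its own plate (9 for iXEN, 8 for iTSC, 7 for ESCs). Effects of 2D culture, medium and plate therefore cannot be told apart. With at least 4000 genes per cell, 14.4% of cells in columns 17 to 24 and 3.19% of VE-like cells were negative. Expressed genes differed between these cells, with medians of 5517 in positive VE-like cells and 8751 in positive iXEN cells. Only columns 17 to 24 had at least 10 matched cells a side, with 51 pairs.

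In those 51 pairs, 15.2% of 8109 genes outside the cell cycle list were higher and 8.35% lower in negative cells. All 29 mitosis and 25 of 29 replication genes were lower, against 10.9% of all genes examined there. Of the genes called higher in VE-like cells, 17.6% were also higher in columns 17 to 24, and 50 were lower. The shared genes made up 13.6% of the higher calls there. Of those called lower in VE-like cells, 12% were shared, or 15.1% of the lower calls there, and 83 went the other way. The 17.6% and 12% also count genes that were not examined in columns 17 to 24. They therefore understate the sharing among examined genes, and yet lay above the shares of all genes called there, 15.2% and 8.35%. The opposite calls, 50 and 83, made up smaller shares of the examined genes than 8.35% and 15.2%. None of these differences was tested. Of the 12 leading genes higher in VE-like cells, 11 were examined there and none was called higher. *Apoe* had means of 14.2 and 9.92 TP10k, *Asl* 2.89 and 2.49, and *Cited1*, at 1.59 and 3.11, was lower. Of the 12 leading genes lower in VE-like cells 6 were also lower, namely *Vamp3*, *Gtpbp4*, *Snf8*, *Uchl5*, *Htra1* and *Brms1l*, while *Spp1* had 17.9 and 17.03 TP10k and *Vps51* was higher. Endocytosis and lysosome genes were higher in 13 of 34 members, including *Ctsd* and *Neu1*. Cholesterol synthesis genes were higher in 1 and lower in 3 of 24, and actin genes higher in 2 and lower in 1 of 27. The difference between both sets of cells was not tested.

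**Figure D5:**
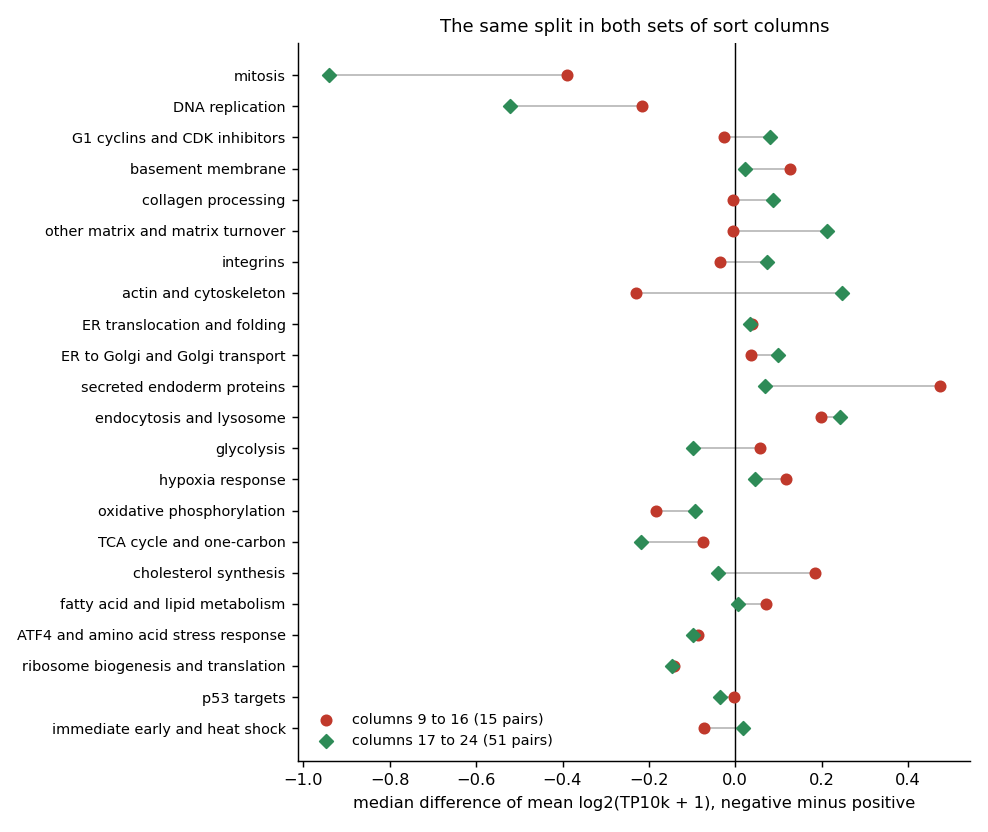
Median difference of mean log2(TP10k + 1), *Mki67*/*Top2a*-negative minus -positive, of each gene list in VE-like cells (columns 9 to 16, red circles, 15 pairs) and in columns 17 to 24 (green diamonds, 51 pairs), with a line joining both values of a list. Mitosis and replication lie left of 0 in both, endocytosis and lysosome lie right of 0 in both (0.20 and 0.24), and actin and cytoskeleton (-0.23 and 0.25) and cholesterol synthesis (0.19 and -0.04) lie on opposite sides.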

How the data were processed

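SMART-seq2 libraries without molecular identifiers were sequenced from single cells. The authors demultiplexed the reads with bcl2fastq 2.20, pseudoaligned them with kallisto to the GRCm38 transcriptome and deposited TPM per gene, in 1 table of 20999 genes. They state that mitochondrial, ribosomal and pseudogene entries were filtered from the TPM. The deposited values therefore have no fixed sum per cell. The median sum was 598130 TPM in negative and 643694 TPM in positive VE-like cells before rescaling. TPM keep no read number, so depth is unknown, cells could not be thinned, and the number of genes above 0 took its place. Transgenic and endogenous *Gata6* cannot be told apart in these values. No doublet caller was run. No VE-like cell had values identical to another. Of all wells, 39 from the 2D cultures held no values.

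Members and lists were chosen with earlier results of these data known. From the deposited values, TPM were rescaled to 10000 per cell (TP10k) and cells matched 1:1 within plates by optimal assignment, at most 200 genes apart. Genes above 0 in at least 25% of the matched cells of either side were examined, and called at a 1.5-fold ratio of means with the same sign of the difference of mean log2(TP10k + 1), with a pseudocount of 1, on plates 3, 4 and 5. The calls are a description: with 1 sample there is no test, and cells are not replicates. Named are *Mki67* and *Top2a*, the 12 genes of each direction with the largest differences outside the cell cycle list, up to 4 called members of each list or else its most abundant member, G1 regulators and cell type markers. Others were named after their values had been seen: *Ass1*, *Apob*, *Pdgfa*, *Vegfa*, *Mttp*, *Mcm6*, *Anxa2*, *S100a11* and *Lgals3*. Coordinates are from Gencode vM21 (GRCm38), and promoters from RefSeq, 1 per gene, the first listed. The pairing was checked for plate, gap and reuse of cells. Calling was run on simulated cells with genes drawn independently and shifts larger than 1.5-fold, so it was not tested at the limit used. Python 3.11.15, numpy 2.4.6, scipy 1.17.1 and pandas 2.3.3 were used. Alternatives changed the thresholds, the rule genes, the matching, the scaling, the filter and the plates. Matching with up to 5 positive cells each, in which a negative cell counts once for each match, and means without the highest cell were added after seeing the data.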

Additional observations from a re-analysis of the deposited data

How the results depend on the processing

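No paired analysis was possible because the labels give each well only a plate and a position, and no number pairs cells across sides. Calls on 15 cells a side are imprecise, many values are 0, and 1 pool gives no spread between samples.

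The rule left 9 negative cells at 4000 genes. Without 1 plate each there were 10 to 11 negative cells, and, with only 2 plates to share a sign, 20.6 to 22.1% of genes were called higher and 18.1 to 20.4% lower. Without matching 6.66% were higher. Ratios of geometric means of TP10k + 1 called 1.59% higher and 1.35% lower, and with no filter on low values 7.06% were lower. Of all calls, 52.96% were in the higher direction in the matched cells, 32.3% without matching and 43.01% with up to 5 positive cells each.

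Median differences moved as follows. Basement membrane (0.13) turned to -0.0413 with sides set by *Cdk1* and *Ccna2*, was 0.0104 without matching and 0.32 with a pseudocount of 0.1, and ranged from -0.0334 to 0.20 without 1 plate each. With *Cdk1* and *Ccna2*, secreted endoderm proteins gave 0.14, endocytosis and lysosome -0.0599 and actin -0.0653. Cholesterol synthesis gave 0.25 without cells of other markers, 0.16 to 0.24 without 1 plate each, 0.00703 without matching and 0.0809 with up to 5 positive cells each. The pseudocount of 0.1 gave 0.59 for cholesterol synthesis, 0.96 for secreted endoderm proteins, 0.18 for ER-to-Golgi transport, -0.28 for ribosome biogenesis and -0.55 for actin. Oxidative phosphorylation gave -0.38 at 4000 genes, and secreted endoderm proteins 0.18 with no filter on low values. With *Cdk1* and *Ccna2*, *Apoe* (-0.23), *Arhgef40* (0.14), *Vps51* (0.13), *Brms1l* (0.0819) and *Tmsb10* (0.17) turned, as did the medians of VE (-0.0132), parietal endoderm (-0.14), AVE and EmVE (-0.19) and ExE markers (0.16). Immediate early and heat shock genes (-0.07) turned to 0.0163 at 4000 genes and ranged from -0.00936 to 0.0716 without 1 plate each. The cause was not tested.

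Of the 24 leading genes, 7 (*Asl*, *Cited1*, *Plac8*, *Mlx*, *Cyp26a1*, *Gpat4* and *Spp1*) were called in the same direction under all of 15 alternatives, and 11 under all but 1. Geometric means are among these 15 but could not change the calls. The genes were chosen for their size of difference and already exceeded that limit. Another 3, sides set at 1 TPM and both changes of the filter, left the cells and values of these genes as they were. With a wider gap allowed, columns 17 to 24 gave 54 pairs, and columns 1 to 8 and iXEN cells still had fewer than 10.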

Other observations

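The 37 VE-like cells with 1 of the 2 genes belonged to neither side. The 18 with *Mki67* alone expressed 11 to 26 replication genes (median 21.5) and 3 to 24 mitosis genes, and the 19 with *Top2a* alone 9 to 27 replication genes (median 17) and 2 to 20 mitosis genes. Their VE markers were like those of the other VE-like cells, with medians of 12 and 11 of 14. The negative cells were spread over the wells: columns 12 and 16 held 4 each, columns 9, 13 and 14 held 2 each, columns 11 and 15 held 1 each and column 10 held 0.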
